A study of Mus musculus with 9 samples.

Results

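The endoplasmic reticulum (ER) chaperones and the unfolded protein response are described here through 32 genes, chosen by gene symbol from a fixed list, among the 53796 genes of the expression table. All 32 had a row in the table. The values are FPKM, the authors' fragment counts divided by transcript length and a scale for library size. The 31 members with a mean of at least 1 FPKM were tested among 12212 such genes. Derl3 was below that level. RNA came from CT26, a mouse colorectal carcinoma cell line, after knockout of Pd-l1. The knockout cells then received a retrovirus with a control vector (KO, 3 samples), with wild-type mouse Pd-l1 (WT, 3 samples) or with Pd-l1 carrying the K262Q substitution (K262Q, 3 samples), and were selected with puromycin. Every group therefore carries the knockout, a retroviral vector and the selection, and each is a polyclonal population rather than a picked clone. No label calls the 3 samples of a group separate cultures, and the spread behind each p-value may therefore be technical.

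Proteins that enter the secretory pathway are folded in the ER by chaperones of the HSP70 and HSP90 families, by the lectins calnexin and calreticulin, which hold proteins through their sugars, and by disulfide isomerases. When unfolded protein builds up, the membrane sensors IRE1 (gene Ern1), ATF6 and PERK (Eif2ak3) start the unfolded protein response: IRE1 splices the Xbp1 message, ATF6 is cut to release a transcription factor, and PERK slows translation while favouring the factor ATF4. XBP1 and ATF6 raise chaperones and the machinery of ER-associated degradation through promoter motifs known as ER stress response elements, and Ppp1r15a (GADD34), which lies downstream of PERK and ATF4, restores translation. Splicing of Xbp1, cleavage of ATF6 and phosphorylation of PERK are not read by these values, which are gene totals.

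Promoter sequences are shown first because the motif through which this response acts was found in many of the members. RefSeq promoters (GRCm38.p6, 250 bases before to 50 bases after the transcript start) were matched by symbol for 27 of the 32 members. No entry was matched for Hyou1, Manf, Atf6, Derl1 and Sec61a1. The ER stress response element, ERSE, was searched on both strands as CCAAT, any 9 bases and CCACG. It was present in 9 of the 27 members (33.3%) and in 37 of 27025 genes with a promoter (0.137%), or 39 of 32851 promoters of the same length (0.119%). The members were listed as genes of the response that acts through this motif. A higher share among them was therefore set in part by that choice, and it is no result of these data. The lines below give each match with 10 bases on either side, 5′ to 3′ on the strand of the gene, with the fixed letters of the motif in capitals. Where the motif lies on the opposite strand it reads CGTGG first and ATTGG second.
Hspa5 (chr2:34772015-34772053, plus strand): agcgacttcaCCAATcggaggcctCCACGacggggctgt
Hsp90b1, far site (chr10:86705628-86705666, minus strand): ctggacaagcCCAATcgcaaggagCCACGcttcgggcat
Hsp90b1, near site (chr10:86705523-86705561, minus strand): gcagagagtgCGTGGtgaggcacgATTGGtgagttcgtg
Dnajc3 (chr14:118937817-118937855, plus strand): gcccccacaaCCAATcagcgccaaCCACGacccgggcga
Creld2 (chr15:88819510-88819548, plus strand): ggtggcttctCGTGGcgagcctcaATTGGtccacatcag
Calr (chr8:84847065-84847103, minus strand): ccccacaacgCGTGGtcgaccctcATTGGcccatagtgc
Canx (chr11:50325790-50325828, minus strand): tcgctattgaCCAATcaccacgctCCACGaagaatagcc
Pdia6 (chr12:17266481-17266519, plus strand): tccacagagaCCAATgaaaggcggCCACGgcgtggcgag
Syvn1 (chr19:6046522-6046560, plus strand): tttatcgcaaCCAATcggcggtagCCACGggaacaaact
Derl3 (chr10:75893232-75893270, plus strand): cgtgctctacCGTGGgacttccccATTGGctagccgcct

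The 9 bases inside the motif differed from gene to gene, and the sites ran from base -212 to base -26 relative to the start. Hsp90b1 was the member with 2 matches. With the last base of the motif left free (CCACN in place of CCACG), which by construction includes every match above, 13 of 27 members matched. The share was 0.429% of genes with a promoter (0.365% of promoters), and the members added were Pdia3, Pdia4, Herpud1 and Derl2. The related element ERSE-II, searched on both strands as ATTGG, any base and CCACG, was found in Herpud1 and Dnajb11 (2 of 27 members, 0.0444% of genes with a promoter, 0.0365% of promoters). In Herpud1 it lies upstream of the start. In Dnajb11 it lies after the start, at bases 8 to 18, and its line below ends with the match.
Herpud1 (chr8:94386367-94386397, plus strand): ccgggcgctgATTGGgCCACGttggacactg
Dnajb11 (chr16:22857842-22857862, plus strand): cccggcggcgATTGGcCCACG
An XBP1-type element, UPRE, searched on both strands as TGACGTGG, was found in Sec24d alone among the members and in 0.714% of genes with a promoter (0.676% of promoters). These matches are letters in a window and do not show binding of a factor. The 250 bases upstream of Creld2, the member with the largest rise below, are given whole with the ERSE letters in capitals (chr15:88819396-88819645, plus strand).
Creld2 upstream: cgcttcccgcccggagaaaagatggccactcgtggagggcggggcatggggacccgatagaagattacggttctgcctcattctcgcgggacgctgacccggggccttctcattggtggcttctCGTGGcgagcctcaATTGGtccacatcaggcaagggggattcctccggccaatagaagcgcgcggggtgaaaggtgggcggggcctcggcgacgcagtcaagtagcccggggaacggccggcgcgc

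**Figure D1:**
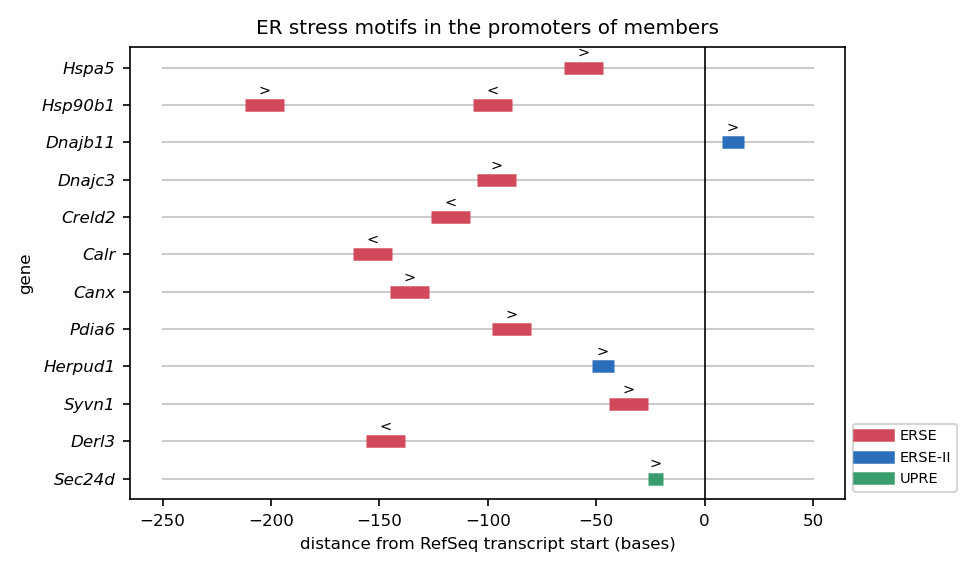
Positions of ERSE (red), ERSE-II (blue) and UPRE (green) matches in the promoters of the 12 members that hold one, in bases from the RefSeq transcript start; > marks a match on the strand of the gene and < one on the opposite strand. ERSE matches lie between -212 and -26.

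Cd274, the gene of Pd-l1, was at 0.982, 0.357 and 0.791 FPKM in the KO libraries, at 35.4 to 37.99 FPKM in the WT libraries and at 37.6 to 41.3 FPKM in the K262Q libraries, so KO libraries separated from both others, while WT and K262Q overlapped and the substitution is not read by a gene total. The spacing of low values implied a scale of 17100000 to 18200000 fragments per library. That scale may include scaling between libraries by the authors' programs, so it need not be the depth sequenced. Of 10 colon epithelial markers 3 reached a mean of 1 FPKM (Krt18, Krt20 and Lgals4), and Cdh1 was listed at 0 in all libraries. Of 8 fibroblast markers 5 reached it, and 0 of 6 leukocyte and 0 of 4 endothelial markers did. Of 6 plasma cell markers Sdc1 reached it, at 17.7 to 18.7 FPKM in WT and 22.0 to 22.3 in K262Q (0.26 ± 0.04, limma adjusted p = 0.018). The sum of that list lay at 22.9 to 23.6 FPKM in K262Q, 18.9 to 20.2 in WT and 19.8 to 21.2 in KO, while Jchain was listed at 0 in 8 of 9 libraries. The summed fibroblast markers lay at 230.7 to 236.9 FPKM in K262Q, 244.0 to 263.4 in WT and 247.5 to 266.4 in KO, and the epithelial ones at 40.5 to 42.8, 44.5 to 46.2 and 48.3 to 50.9. These sums were mostly 1 gene each: Col1a2 (189 to 219 FPKM over all libraries), Krt18 (26.1 to 35.7) and, for plasma cells, Sdc1. By group mean, Col3a1, Pdgfra and Krt20 were higher in K262Q than in WT, and Col1a1, Pdgfrb and Lgals4 lower. The sums therefore do not speak for whole lists. The part of these markers in the results was not tested. Over all genes tested, 67.8% of the calls between K262Q and WT were higher in K262Q, and 43.4% after upper-quartile scaling.

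The members ranged over several orders of magnitude. Hsp90b1 (GRP94) had the highest level per length, with a mean of 2015 FPKM over the 9 libraries, followed by Calr (calreticulin) at 1192 and Hspa5 (BiP) at 1183 FPKM. Calr and Hspa5 did not separate from each other in that order: in KO they read 1111 and 1111, 1232 and 1206, and 1035 and 1109 FPKM in replicates 1, 2 and 3. The sensors were far lower, with means of 22.4 FPKM for Atf6, 20.7 for Ern1 and 5.14 for Eif2ak3. Pdia5 averaged 3.88 FPKM. Derl3, a degradation factor of secretory tissues, was listed at 0 to 0.670 FPKM and overlapped between all groups. The 32 genes together made up 1.10% to 1.26% of the FPKM of all genes tested in a library.

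In cells with K262Q Pd-l1, 11 genes of the folding machinery were higher than in cells with wild-type Pd-l1, and the stress sensors Ern1 and Atf6 were lower. Both groups carry Pd-l1; the substitution and the separate making of each polyclonal population cannot be told apart. Of 31 members tested, 12 rose in K262Q, 2 fell and 17 did not pass (limma on log2(FPKM + 1), Benjamini-Hochberg adjusted p under 0.05 over all genes tested). Among all genes tested, 6.35% rose and 3.02% fell by the same rule, 9.38% in either direction. K262Q and WT libraries did not overlap in 17 members that were higher in K262Q (22.0% of genes tested) and 5 that were lower (13.4%). The median difference of the members was 0.18 on the log2 scale, against 0.03 for all genes tested. The summed FPKM of all genes tested was also higher in K262Q (717393, 725781 and 739787) than in WT (649750, 672143 and 676642). Of that sum the 32 members made up 1.195%, 1.256% and 1.227% in K262Q and 1.132%, 1.138% and 1.11% in WT. In KO they made up 1.192%, 1.206% and 1.103%, so K262Q and KO overlapped in this share. How far the higher sum enters the differences of these abundant genes was not tested. The rises were 6 of 9 chaperones and co-chaperones, both lectin chaperones, 3 of 5 disulfide isomerases and 1 of 4 translocon and export genes, and the falls were Ern1 and Atf6. Folds are those of FPKM + 1 in the fit, and each ± beside a log2 difference is its SE. In bulk RNA a change in the share of cells that express a gene and a change per cell cannot be told apart.

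The count fell with any single WT or K262Q library left out, while the called differences kept their direction. With 1 library left out, the difference of Hspa5 ran from 0.25 to 0.29 and that of Ern1 from -0.83 to -0.74. The count was 0 without K262Q replicate 2 and 1 (Creld2) without WT replicate 1, WT replicate 2 or K262Q replicate 3. It was 5 without WT replicate 3 and 7 without K262Q replicate 1. The count over all genes moved with it, to 29 of 12212 (0.237%) without K262Q replicate 2. Over all genes it was 49 without WT replicate 1, 44 without WT replicate 2 and 41 without K262Q replicate 3. It was 371 without WT replicate 3 and 333 without K262Q replicate 1. After upper-quartile scaling 9 members rose and 3 fell (3.31% and 4.32% of all genes, 7.62% together), and after TMM scaling 11 rose and 3 fell (4.93% and 3.81%, 8.74% together). The added fall was Xbp1 in both. Dnajb11, Dnajc3 and Ssr1 lost their calls after upper-quartile scaling, and Dnajb11 after TMM scaling.

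**Figure D2:**
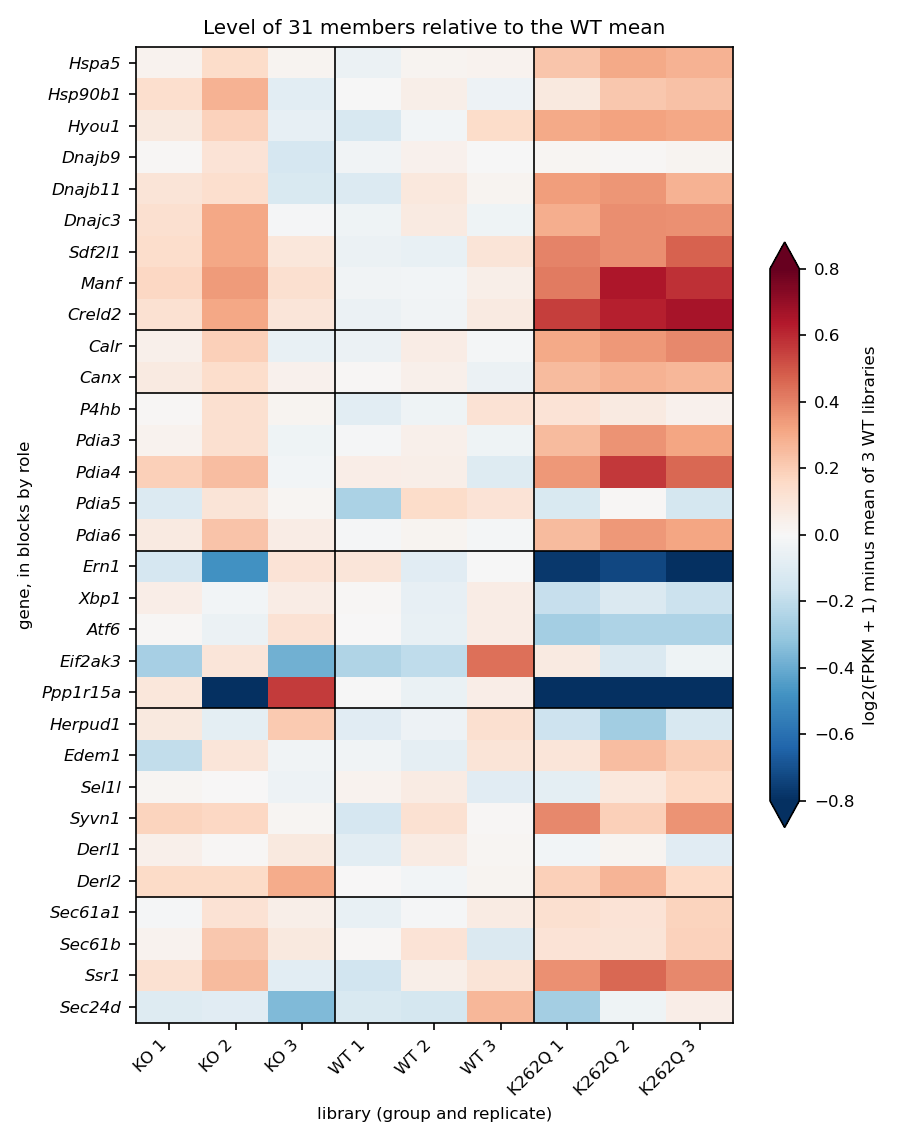
Level of the 31 tested members (rows, in blocks by role) in each of the 9 libraries (columns), as log2(FPKM + 1) minus the mean of the WT libraries; colours saturate at 0.8 in either direction. Most chaperones and disulfide isomerases are red in the K262Q columns and Ern1, Xbp1, Atf6 and Ppp1r15a blue, and KO replicate 2 shows part of both.

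Hspa5, the HSP70 chaperone that also holds the sensors inactive, gave 1055, 1107 and 1109.7 FPKM in the WT libraries against 1275, 1345 and 1325 FPKM in the K262Q ones. Every K262Q library was above every WT and every KO library, the latter at 1111, 1206 and 1109 FPKM. Hspa5 rose 1.21-fold in K262Q over WT (log2 difference 0.27 ± 0.05, adjusted p = 0.022). The gene lies on chromosome 2 (34771970 to 34777547, GRCm38, plus strand). Its call was kept in 5 of 9 fits with a library left out.

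Creld2 and Manf, proteins of the ER that are secreted under stress, had the largest rises. Creld2 (chromosome 15, 88819646 to 88826683) had WT libraries at 99.6, 101 and 108 FPKM and K262Q libraries at 151, 158 and 163 FPKM. The groups were far apart, and KO lay between them at 112, 127 and 109.8 FPKM. Creld2 rose 1.53-fold (log2 difference 0.61 ± 0.07, adjusted p = 0.0105) and was called in 8 of 9 fits with a library left out. Relative to Hspa5 of the same library, a ratio that no scaling between libraries can alter, Creld2 stood at 0.0911 to 0.0973 in WT and 0.118 to 0.123 in K262Q, higher in every K262Q library. Manf (chromosome 9, 106838312 to 106891979) stood at 309, 311 and 326 FPKM with wild-type Pd-l1 and at 420.3, 494 and 473 FPKM with K262Q. It rose 1.46-fold (0.55 ± 0.08, adjusted p = 0.016), with KO at 354, 400.0 and 345 FPKM. The Manf gene overlaps Dcaf1 and Rbm15b, each near 24 FPKM, and the counting strand is not given in the sources used here.

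Co-chaperones followed with smaller rises. Sdf2l1, which keeps unfolded protein soluble together with a DnaJ partner, gave 49.1, 48.7 and 54.5 FPKM in the WT libraries against 67.2, 66.0 and 70.6 FPKM in the K262Q ones, a rise of 1.33-fold (adjusted p = 0.022). Dnajc3 (p58IPK), a DnaJ co-chaperone of BiP, went from 35.02, 37.9 and 35.1 to 44.1, 46.9 and 46.6 FPKM, 1.27-fold (adjusted p = 0.041). Dnajb11 (ERdj3) went from 94.3, 108 and 103 to 128, 129.9 and 124 FPKM, a log2 difference of 0.32 ± 0.08 (adjusted p = 0.0453). The WT and K262Q libraries did not overlap for any of the 3. The calls of Dnajb11 and Dnajc3 were the least stable ones of the group, each kept in 2 of 9 fits with a library left out, and both lost their calls without the variance trend. Dnajb11 also lost its call with the replicate number as a block.

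The other 3 of the 9 did not pass. Hsp90b1, the HSP90 of the ER, had WT libraries at 1879.9, 1939 and 1825 FPKM and K262Q libraries at 1984, 2184 and 2208 FPKM (log2 difference 0.17 ± 0.09, adjusted p = 0.25). KO libraries spanned 1775 to 2277 FPKM, wider than the difference. Hsp90b1 is thus the member with 2 ERSE matches, the highest level and no call. Hyou1 (GRP170), a nucleotide exchange factor of BiP, measured 69.4, 74.7 and 84.0 against 93.8, 95.0 and 94.1 FPKM and lay just outside the threshold (0.31 ± 0.08, adjusted p = 0.0556). Dnajb9 (ERdj4), a DnaJ protein that represses IRE1 through BiP, was level at 22.1 to 23.0 FPKM in WT and 22.7 to 22.9 FPKM in K262Q (0.02 ± 0.06, adjusted p = 0.901), and its difference turned to -0.05 after upper-quartile and -0.02 after TMM scaling.

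Both lectin chaperones rose. Calr stood at 1046, 1126 and 1066 FPKM with wild-type Pd-l1 and at 1331, 1369.6 and 1408 FPKM with K262Q, a rise of 1.27-fold (adjusted p = 0.026). Canx (calnexin), its membrane-bound relative, gave 217, 221 and 208 FPKM in the WT libraries against 256, 261 and 259 FPKM in the K262Q ones, 1.20-fold (adjusted p = 0.0179). In both genes all K262Q libraries were above all WT and KO libraries. Calr has a processed pseudogene copy, Calr-ps, with which reads could be shared.

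Among the disulfide isomerases, Pdia4 (ERp72) rose most. It had WT libraries at 219, 218 and 196 FPKM and K262Q libraries at 269, 313 and 291 FPKM, 1.37-fold (0.46 ± 0.09, adjusted p = 0.027). Pdia3 (ERp57), the isomerase that works with calnexin and calreticulin, went from 674, 698 and 663 to 809.6, 869 and 845 FPKM, 1.24-fold (adjusted p = 0.0204). Pdia6, which acts on IRE1 and other clients, went from 374, 383 and 372 to 449, 478 and 469 FPKM, 1.24-fold (adjusted p = 0.022). The groups did not overlap in any of these. P4hb, the founding disulfide isomerase and a subunit of prolyl hydroxylase, stood at 388, 401 and 446 FPKM with wild-type Pd-l1 and at 443, 431 and 421 FPKM with K262Q, and the groups overlapped (0.07 ± 0.06, adjusted p = 0.493). Pdia5 also overlapped, at 3.16 to 4.47 FPKM in WT and 3.503 to 3.98 FPKM in K262Q (-0.08 ± 0.12, adjusted p = 0.689). Whether P4hb and Pdia5 differ in their response from the other isomerases was not tested.

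**Figure D3:**
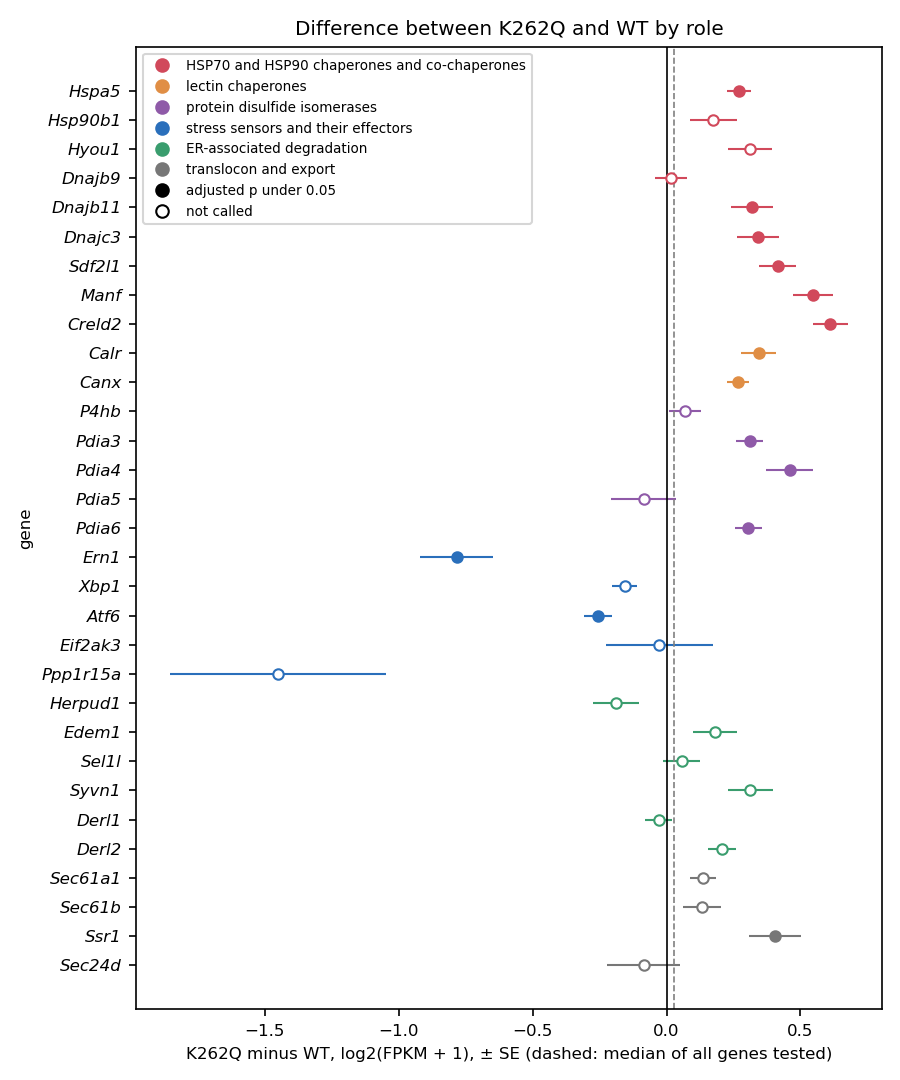
Difference between K262Q and WT of each tested member on the log2(FPKM + 1) scale with its SE, coloured by role; filled points passed an adjusted p of 0.05. The dashed line is the median of all genes tested, 0.03, and the points of the sensors and effectors all lie left of 0.

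Among the sensors and effectors the calls were falls. Of the 5 genes, 2 fell (3.02% of all genes tested), 0 rose (6.35%) and 3 did not pass, with a median of -0.25 on the log2 scale. Ern1, which encodes IRE1, gave 26.9, 23.6 and 25.1 FPKM in the WT libraries against 14.3, 14.8 and 13.5 FPKM in the K262Q ones. The highest K262Q library was below the lowest WT and the lowest KO library, KO standing at 22.9, 17.7 and 27.3 FPKM. Ern1 fell 1.72-fold (-0.78 ± 0.14, adjusted p = 0.0224). The gene lies on chromosome 11 (106394650 to 106487852, minus strand), and its call was kept in 3 of 9 fits with a library left out. Atf6 had WT libraries at 23.6, 22.6 and 24.6 FPKM and K262Q libraries at 19.3, 19.8 and 19.7 FPKM, with KO at 23.7, 22.8 and 25.6 FPKM. Atf6 fell 1.19-fold (-0.25 ± 0.05, adjusted p = 0.0321), and this call was kept in 2 of 9 such fits. With any single WT or K262Q library left out, 0 of the 5 passed.

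Xbp1, the transcription factor whose message IRE1 splices, stood at 42.9, 40.8 and 44.5 FPKM with wild-type Pd-l1 and at 37.4, 39.3 and 37.8 FPKM with K262Q. The groups did not overlap, and the difference of -0.16 ± 0.05 did not pass (adjusted p = 0.0739), while it did after upper-quartile and after TMM scaling (-0.22 and -0.19). Eif2ak3, which encodes PERK, gave 4.38, 4.53 and 7.63 FPKM in the WT libraries against 5.67, 4.86 and 5.21 FPKM in the K262Q ones. The groups overlapped, with WT replicate 3 above all others (-0.03 ± 0.20, adjusted p = 0.962), and the difference was 0.19 without that library.

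Ppp1r15a, the phosphatase subunit that ends the translation block, had the largest difference of all members and no call. It had WT libraries at 70.8, 68.5 and 73.7 FPKM and K262Q libraries at 27.1, 26.2 and 22.8 FPKM, groups that were far apart, but 75.8, 28.7 and 105 FPKM in KO. KO replicate 2 was thus near the K262Q libraries. The difference between K262Q and WT was 2.73-fold lower in K262Q with an SE that pools the spread of KO (-1.45 ± 0.40, adjusted p = 0.0635). It passed with only the K262Q and WT libraries in the fit and without KO replicate 2 or KO replicate 3. Hspa5 stood at 14.9 to 16.2 times Ppp1r15a in WT, 47.0 to 58.1 times in K262Q, and 14.7, 42.0 and 10.5 times in KO replicates 1, 2 and 3.

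**Figure D4:**
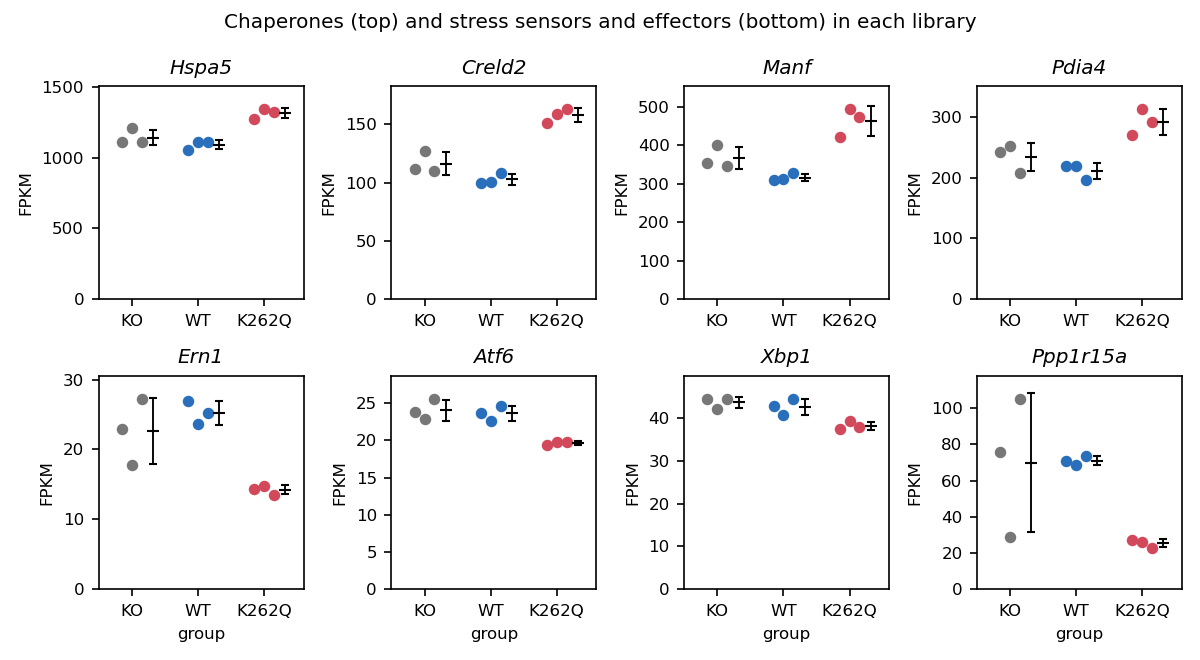
FPKM of Hspa5, Creld2, Manf and the disulfide isomerase Pdia4 (top row) and 4 sensors or effectors (bottom row) in the 3 libraries of each group. Black bars are the mean and SD, and every axis starts at 0. The K262Q points lie above all others in the top row and below all others in the bottom row, and the KO points of Ppp1r15a run from 28.7 to 105. The genes drawn were picked: the sensor Eif2ak3, with overlapping groups, and uncalled members such as Hsp90b1, Dnajb9 and P4hb are not shown.

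None of the 6 tested genes of ER-associated degradation, which pulls misfolded protein out of the ER for the proteasome, passed the limma test. An unadjusted p under 0.05 was seen in 2 of the 6, and in 3402 of the 12212 genes tested, a similar share. Herpud1, a scaffold of the degradation complex, stood at 94.1, 97.4 and 109.7 FPKM with wild-type Pd-l1 and at 89.4, 82.5 and 91.7 FPKM with K262Q, lower in each K262Q library than in any WT library (-0.19 ± 0.09, adjusted p = 0.21). Its direction was opposite to that of Syvn1 (HRD1), the ubiquitin ligase of the same complex, which gave 25.9, 31.2 and 28.8 FPKM in the WT libraries against 37.6, 32.8 and 36.9 FPKM in the K262Q ones (0.31 ± 0.09, adjusted p = 0.06). Syvn1 overlaps Mrpl49 on the other strand, at a mean of 42.6 FPKM. Derl2, a channel component, had WT libraries at 36.3, 35.5 and 36.7 FPKM and K262Q libraries at 41.3, 43.9 and 40.4 FPKM (0.21 ± 0.05, adjusted p = 0.0504), and Derl2 overlaps Mis12. With only genes at a mean of at least 5 FPKM in the test, Derl2 and Syvn1 passed, and so did Hyou1. Edem1, a mannosidase-like lectin that marks substrates, had a difference of 0.18 ± 0.08, Sel1l, the partner of HRD1, 0.06 ± 0.07 and Derl1 -0.03 ± 0.05, each with overlapping groups.

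Of the translocon and export genes, Ssr1 rose. Ssr1 encodes a subunit of the complex that assists the translocon, and stood at 83.6, 96.0 and 100.0 FPKM with wild-type Pd-l1 and at 120.3, 128 and 121 FPKM with K262Q, 1.32-fold (0.40 ± 0.10, adjusted p = 0.0432). This call was kept in 2 of 9 fits with a library left out, and was lost with the replicate number as a block, without the variance trend and with no filter on low values. Sec61a1, the channel itself, was at 87.5 to 95.7 FPKM in WT and 98.5 to 103 FPKM in K262Q (0.14 ± 0.05, adjusted p = 0.117). Sec61b, its small subunit, had overlapping groups (0.13 ± 0.07, adjusted p = 0.265). Sec24d, a coat protein of vesicles leaving the ER, also overlapped, with WT at 54.4, 53.7 and 71.4 FPKM (-0.09 ± 0.14, adjusted p = 0.725).

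Members with an ERSE match were set beside those without one. Of the 9 with a match, 8 were tested, and 6 of these rose (Hspa5, Dnajc3, Creld2, Calr, Canx and Pdia6), with a median difference of 0.31. Of the 18 with a promoter sequence and no match, 5 rose and 1 fell, with a median of 0.06. Among all genes tested, 6.35% rose and 3.02% fell, with a median of 0.03. The comparison of both sets is a description, and the difference between them was not tested. Pdia3 and Pdia4 in the second set match the motif with a free last base, and Dnajb11 matches ERSE-II after the transcript start. Ern1, Xbp1, Eif2ak3 and Ppp1r15a held none of the 4 motifs in the window searched.

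Of 94 tested genes in 5 further lists, 11 rose and 3 fell in K262Q (6.35% and 3.02% of all genes tested), with a median difference of 0.10. After upper-quartile scaling 3 of the 94 rose and 3 fell, no larger a share than the 3.31% and 4.32% of all genes under that scaling. With 1 library left out the calls numbered 0 (without WT replicate 2, K262Q replicate 2 or K262Q replicate 3) to 22 (without KO replicate 2). Among 24 genes of translocation, signal peptidase and glycosylation 6 rose and 0 fell. Sec11c (1.30-fold) and Spcs3 (1.29-fold), both subunits of the signal peptidase, and Ddost (1.15-fold), a subunit of the oligosaccharyltransferase, were among them. Among 21 folding enzymes Erp29 rose 1.23-fold. Ero1l, the oxidase that recharges disulfide isomerases, fell 1.71-fold, from 399 ± 39.0 FPKM in WT to 232 ± 16.2 FPKM in K262Q (SD, n = 3; limma adjusted p = 0.016), against the direction of the isomerases. Ero1l is also known as a hypoxia target. Of 20 further degradation genes, Vcp, the segregase that extracts substrates, rose by 0.32 ± 0.06 on the log2 scale.

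Of 15 COPII coat and cargo receptor genes, Sar1b rose 1.18-fold and Mcfd2 fell 1.17-fold. The call of Sar1b (adjusted p = 0.0495) was kept in 1 of 9 fits with a library left out and in 2 of 8 other alternatives, and that of Mcfd2 in 3 of 9 and 7 of 8. In the list of 14 further ER stress signalling genes, Bax rose 1.24-fold, Mbtps2, a protease that cuts ATF6, rose 1.27-fold, and Crebrf, a regulator of CREB3, fell 1.53-fold. Bax, Mbtps2 and Crebrf were each called in 2 or 3 of 9 fits with a library left out.

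In the PERK and ATF4 branch the calls were falls. Of 14 tested genes, 6 fell, 0 rose and 8 did not pass, with a median of -0.54 on the log2 scale. Among all genes tested, 3.02% fell and 6.35% rose. With any single WT or K262Q library left out 0 of the 14 passed, and the median stayed between -0.57 and -0.51. Nupr1, a stress-induced nuclear protein, fell 2.16-fold from 68.1 ± 5.22 to 30.9 ± 1.14 FPKM, Vldlr, a lipoprotein receptor, 1.43-fold from 84.7 ± 1.57 to 58.8 ± 1.45 FPKM, and Trib3, a pseudokinase, 2.71-fold from 138 ± 11.6 to 50.3 ± 3.86 FPKM (SD, n = 3). Ddit3 (CHOP) measured 128 ± 15.6 FPKM in WT and 51.1 ± 2.55 FPKM in K262Q (-1.31 ± 0.34, adjusted p = 0.0517) and did not pass. Atf4 itself had a difference of -0.10 ± 0.06 (adjusted p = 0.325). As with Ppp1r15a, KO replicate 2 was the lowest KO library for Trib3 (136, 70.5 and 183 FPKM), Nupr1 (75.7, 43.9 and 79.6 FPKM) and Ddit3 (121, 55.6 and 160.1 FPKM).

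Heat shock chaperones that serve protein outside the ER formed a further list, mostly of the cytosol. Of 12 tested genes, 6 rose, 0 fell and 6 did not pass, with a median of 0.26. Among all genes tested, 6.35% rose and 3.02% fell. After upper-quartile scaling 4 of the 12 rose (3.31% of all genes), and 3 did without the variance trend or with the replicate number as a block. Without WT replicate 1, WT replicate 2, K262Q replicate 2 or K262Q replicate 3, 0 passed, without K262Q replicate 1, 1, and without WT replicate 3, 2. Hspa8, the constitutive HSP70 of the cytosol, rose 1.38-fold, the mitochondrial co-chaperonin Hspe1 1.24-fold and Hsp90ab1 1.16-fold.

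**Figure D5:**
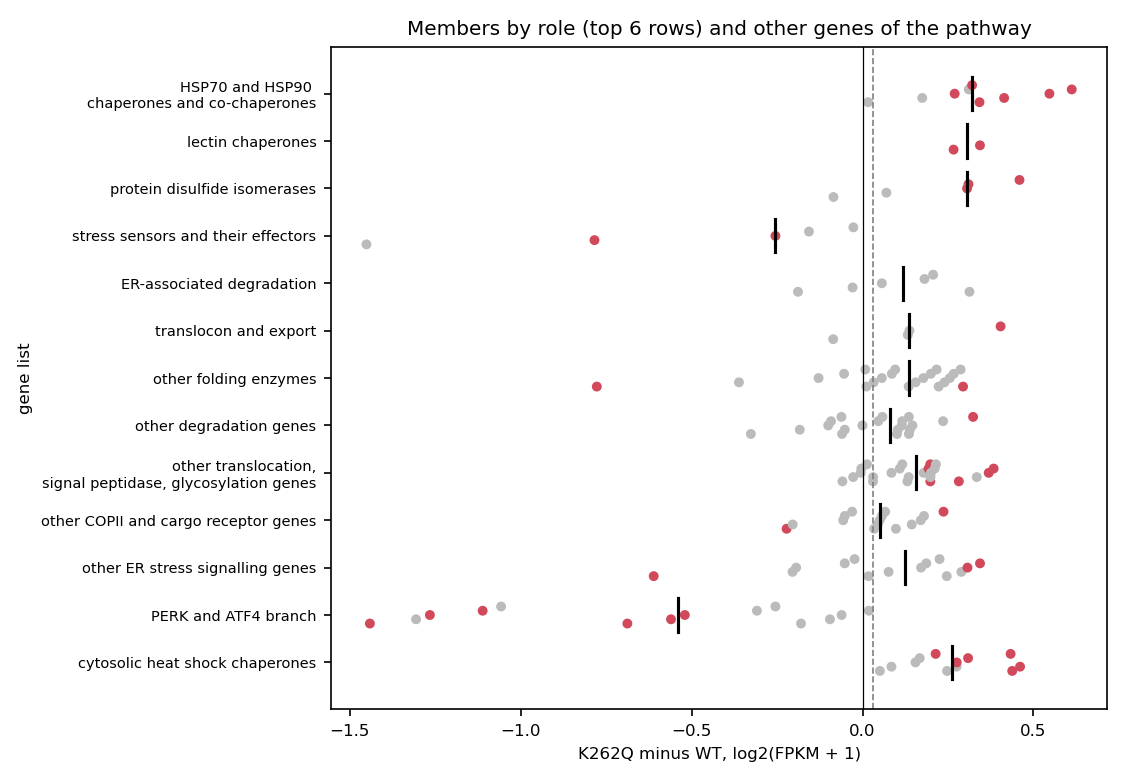
Difference between K262Q and WT on the log2(FPKM + 1) scale for each tested gene of 6 member groups and 7 further lists; red points passed an adjusted p of 0.05, grey points did not, black bars are list medians, and the dashed line is the median of all genes. The medians of the PERK and ATF4 branch (-0.54) and of the sensors (-0.25) lie left of 0 and the other 11 to the right.

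Restoring wild-type Pd-l1 to knockout cells gave no called change in these genes. Between WT and KO, 0 of 31 members passed (limma), against 0.0819% of all genes tested, and 5 members had an unadjusted p under 0.05 (16.1%, against 5.62% of all genes). Member differences ran from -0.21 (Manf) to 0.21 (Ppp1r15a), with a median of -0.06 against -0.02 for all genes. The WT libraries were below all KO libraries for Manf, Creld2, Pdia6 and Derl2, 4 of 31 members (12.9%, against 6.48% of genes tested), and above all of them for 0 (2.75%). For Derl2 the levels were 40.2, 40.4 and 44.5 FPKM in KO and 36.3, 35.5 and 36.7 FPKM in WT (-0.20 ± 0.05, adjusted p = 0.854). For Hspa5 the difference was -0.07 ± 0.05 (adjusted p = 0.885).

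Between K262Q and KO, 1 of 31 members passed, Creld2, which rose 1.35-fold (0.44 ± 0.07, adjusted p = 0.0392), and 1.26% of all genes did. This comparison and the former share the KO libraries, and this one shares the K262Q libraries with the main one. Groups did not overlap in 14 members that were higher in K262Q (45.2%, against 15.0% of genes tested) and 5 that were lower (16.1%, against 11.9%). The 5 lower ones were Ern1, Xbp1, Atf6, Ppp1r15a and Herpud1. Ern1 had a difference of -0.62 ± 0.14 (adjusted p = 0.0653), Atf6 -0.28 ± 0.05 (adjusted p = 0.0552), Pdia3 0.27 ± 0.05 (adjusted p = 0.0552) and Hspa5 0.20 ± 0.05 (adjusted p = 0.067).

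KO replicate 2 decided this count. It was the highest KO library in all 12 members that rose between K262Q and WT and the lowest in both that fell. In these 12 it was above every WT library, and in 11 of them below every K262Q library. That place between the groups was not its alone. KO replicate 1 was above every WT library in 10 of the 12 and KO replicate 3 in 3, and both were below every K262Q library in all 12. Without KO replicate 2, 13 members passed between K262Q and KO, 9 higher and 4 lower (5.58% and 3.56% of all genes, 9.15% together). With any other single library left out, 0 members passed, so that Creld2 lost its call. The 9 higher were Creld2, Manf, Calr, Pdia3, Sdf2l1, Dnajc3, Hspa5, Pdia6 and Canx, with differences of 0.21 to 0.50. The 4 lower were Ppp1r15a (-1.78, adjusted p = 0.00526), Ern1 (-0.77, adjusted p = 0.0109), Atf6 (-0.32, adjusted p = 0.0226) and Xbp1 (-0.21, adjusted p = 0.042). The labels give no reason to set that library apart.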

How the data were processed

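RNA of 9 CT26 samples in 3 groups of 3 was measured by sequencing. Per the submitters' processing notes, the authors used STAR 2.5.4a, Cufflinks 2.2.1 and Cuffdiff with the mm10 build, and the deposited values are FPKM, 1 per gene and sample; counts and strand are not given in the sources used here. Genes were tested with limma 3.58.1 in R 4.3.3 (moderated variances with a mean-variance trend): log2(FPKM + 1) of all 9 samples entered 1 two-sided fit, with a mean of at least 1 FPKM required and Benjamini-Hochberg adjustment over 12212 genes. The pseudocount of 1 understates changes of low genes. An exact test of 3 against 3 cannot go below p = 0.1. Members, lists and rules were chosen with earlier results of these data known. All 32 members are named, and up to 3 called genes per direction in each further list. Of 194 listed genes 2 matched more than 1 row and were left out. Positions are from GENCODE M21 (GRCm38) and promoters from RefSeq. A fragment scale was inferred from low values of genes with 1 transcript, where 71.4% to 72.9% lay within 0.1 of whole multiples (20% if spread evenly). It may differ from the depth sequenced. At that scale the lowest value of a tested member stood for 104 fragments (Pdia5), for counting error only. Alternatives were another pseudocount, filter, scaling (upper quartile, TMM in own code), sample set, variance model, a replicate block and each library left out. Python 3.11.15, pandas 2.3.3 and matplotlib 3.10.9 were used.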

Additional observations from a re-analysis of the deposited data

How the results depend on the processing

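Members called between K262Q and WT (14) numbered 6 with no filter on low values and 0 to 17 with 1 library left out, and genes called over the whole table (1145) 353 and 29 to 1597. The count of 14 was 12 (931 genes in all) after upper-quartile scaling, 14 (1067) after TMM scaling, 11 (775) without the variance trend and 16 (1382) with only those groups. Between WT and KO, 0 members passed under each alternative, and genes called (10) numbered 18 with no filter and 9 to 18 with 1 library left out. Between K262Q and KO, members called (1) numbered 0 with no filter, 3 at a mean of at least 5 FPKM, 3 after upper-quartile and 4 after TMM scaling, 0 with only those groups, 0 without the trend, and 0 to 13 with 1 library left out. Genes called (154) numbered 55, 206, 234, 306, 10, 37 and 13 to 1117 in that order. The replicate numbers showed no strong pairing of the samples over all genes. Deviations of same-numbered libraries correlated at -0.036 to 0.078 and those of differently numbered ones at -0.074 to 0.051. Pairing in part of the genes was not tested. With the replicate number as a block, 12 members passed between K262Q and WT (789 genes in all; Dnajb11 and Ssr1 lost their calls), 0 between K262Q and KO (5 genes in all), and 6 genes in all between WT and KO.

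Some differences that no fit called changed sign. After upper-quartile scaling these were, between K262Q and WT, Dnajb9 (-0.0487, and -0.0174 after TMM) and Sel1l (-0.0103), between WT and KO, Atf6 (0.0029) and Pdia5 (0.0211, and 0.0159 after TMM), and, between K262Q and KO, Derl2 (-0.0313, and -0.0055 after TMM), Dnajb9 (-0.0154), P4hb (-0.0218) and Sec61b (-0.0109). With 1 library left out, the log2 difference between K262Q and WT ran from -0.0702 to 0.0031 for Derl1, -0.1472 to 0.194 for Eif2ak3 and -0.1561 to 0.046 for Sec24d. Between WT and KO it ran from -0.0609 to 0.0183 for Atf6, -0.1174 to 0.008 for Calr, -0.1199 to 0.0139 for Dnajb11, -0.0604 to 0.0627 for Dnajb9, -0.032 to 0.1127 for Edem1, -0.0362 to 0.3248 for Eif2ak3, -0.0784 to 0.0034 for Pdia3, -0.0747 to 0.1236 for Pdia5, -0.3277 to 0.5917 for Ppp1r15a, -0.0244 to 0.053 for Sel1l and -0.0617 to 0.0002 for Xbp1. Between K262Q and KO it ran from -0.0271 to 0.0533 for Derl2, -0.0439 to 0.0793 for Dnajb9, -0.031 to 0.1485 for Hsp90b1, -0.006 to 0.0553 for P4hb and -0.0117 to 0.0807 for Sec61b. The cause of these changes was not tested. No call given in the text changed direction. Pdia5 gets no value at a mean of at least 5 FPKM. Depth limits Pdia5 and Derl3 most.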

Other observations

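Outside the members, 28 genes held the ERSE letters in their RefSeq promoter. Of these 6 passed the filter on low values (1700122E12Rik, Acacb, Alg12, Hnrnpa3, Pan2 and Zfp57), and 0 of the 6 were called between K262Q and WT by limma, with 0 at an unadjusted p under 0.05. Their differences ran from -0.26 to 0.09 on the log2 scale, against 0.17 to 0.61 for the 8 tested members with the motif. Over all genes tested 9.38% were called, so 0 of 6 cannot tell these genes from the rest. By GENCODE position, the Creld2 match lies between the starts of Alg12 (88819318) and Creld2 (88819646), which run in opposite directions. The Calr match likewise lies between the starts of 1700122E12Rik (84847188) and Calr (84846934). Each pair may hold the same site, so Alg12 and 1700122E12Rik may not be separate from the members. The motif set was chosen after the data were seen, and the comparison is a description.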
